A study of Mus musculus with 2 samples.

Results

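Replication-dependent histone genes were taken as every protein-coding gene whose symbol begins with Hist1h, Hist2h, Hist3h or Hist4h in the GENCODE M21 annotation of the mouse genome (GRCm38, the build of mm10). The annotation holds 67 such genes, and 64 of them were rows of the deposited gene tables, among 43346 annotated genes and 21474 protein-coding genes in all. The other 3, Hist2h2bb, Hist1h2bm and Hist1h2bh, are not analysed here. The 64 genes comprise 6 of the H1 family, 18 of H2A, 15 of H2B, 12 of H3 and 13 of H4. They lie in the Hist1 cluster on chromosome 13 (52 genes), the Hist2 cluster on chromosome 3 (9 genes), the Hist3 cluster on chromosome 11 (2 genes) and alone as Hist4h4 on chromosome 6.

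The tissue was the neural tube, the embryonic precursor of brain and spinal cord, of healthy B6NCrl mouse embryos at embryonic day 11.5. No genotype or treatment was compared. The series has 1 group with 2 biological replicates, and each library is a pool, of 88 embryos in replicate 2 and of 109 embryos in replicate 1, with both sexes mixed. Total RNA-seq is the assay name in the labels, while the protocol they link is SmartSeq. It is thus unclear whether transcripts without a poly(A) tail were captured.

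Core histones H2A, H2B, H3 and H4 form the protein spool of the nucleosome, and linker histones of the H1 family bind where DNA enters and leaves it. The replication-dependent genes supply these proteins during S phase, when new DNA has to be packaged. Their mRNAs are mostly intronless and typically end in a conserved stem-loop, bound by the protein SLBP, in place of a poly(A) tail. Replacement histones such as those encoded by H3f3a and H2afz are made throughout the cell cycle from ordinary polyadenylated mRNAs.

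The stem-loop is shown first because it defines this class of mRNA. It was searched, on the transcribed strand of the GENCODE M21 transcripts, as 16 bases that open with GG, close with CC and hold TTNTNA in the middle, and each line gives 30 bases from 5′ to 3′ with the 16 letters of the stem-loop in capitals. The genes shown are the highest of H2A, H4, H2B and H1, together with Hist1h2ao, a copy of Hist1h2ap, and Hist1h2ae, the second highest H2A gene.
Hist1h2ap: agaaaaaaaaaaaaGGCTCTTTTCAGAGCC
Hist1h2ao: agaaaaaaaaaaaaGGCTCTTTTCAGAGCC
Hist1h2ae: gtaaaaaaaacaaaGGCTCTTTTCAGAGCC
Hist1h4d: acccaaaaaccaaaGGCCCTTTTCAGGGCC
Hist3h2ba: gcccccaacccaaaGGCTCTTTTCAGAGCC
Hist1h1e: cccaacaacccaaaGGCTCTTTTCAGAGCC
The stem-loop was identical in these genes except in Hist1h4d, where both arms of the stem differ. The bases before it differed more. Hist1h2ap and Hist1h2ao carry 12 consecutive A just upstream of the stem-loop, and Hist1h2ae carries 8. A run of at least 8 A ending within 4 bases of a stem-loop occurred in these 3 of 69 protein-coding transcripts of the histone genes and in 0 of 58728 other protein-coding transcripts. The pattern follows the sequences shown above and requires the stem-loop, which only 3.81% of the other transcripts hold anywhere. The contrast therefore does not show that the run is particular to histone genes. A run of 12 A anywhere occurred in 4.35% of the histone transcripts and in 5.31% of the others.

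Of the 64 histone genes, 49 (76.6%) were detected, meaning at least 1 TPM (transcript share scaled to a fixed total, a level per length of transcript) in both libraries, against 59.9% of all protein-coding genes. Their median level was 4.62 TPM, against 4.395 TPM over protein-coding genes. The levels were very unequal. By mean level, 4 genes stood above 100 TPM, 19 between 10 and 100 TPM, 28 between 1 and 10 TPM and 13 below 1 TPM. The 4 highest, Hist1h2ap, Hist1h4d, Hist1h3i and Hist1h2ae, held 87.35% of the summed TPM of the 64 genes.

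**Figure D1:**
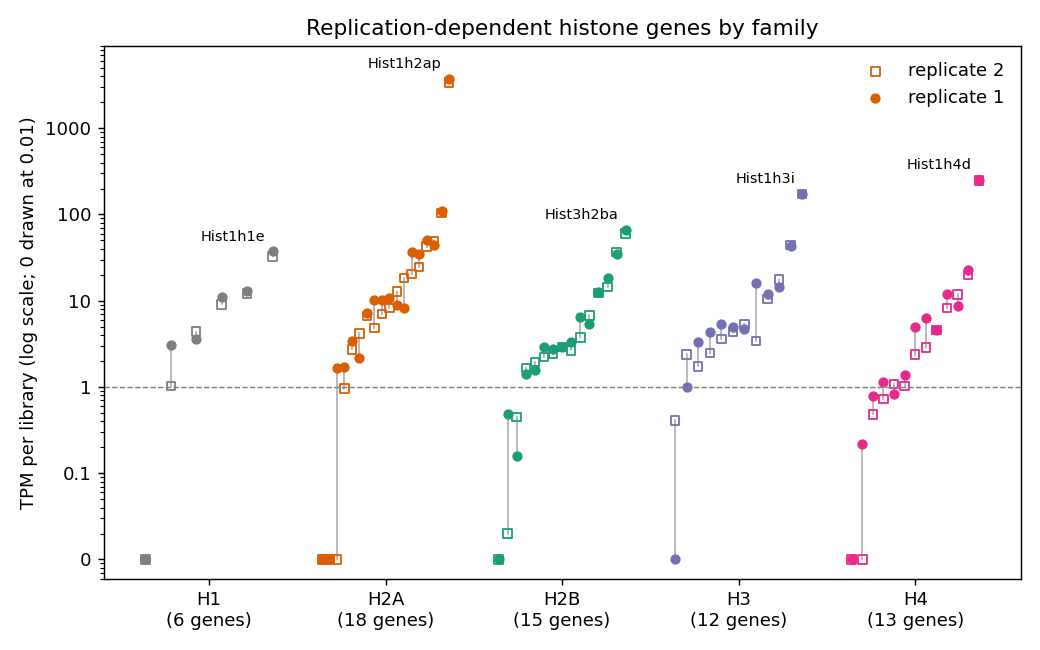
Level of each of the 64 replication-dependent histone genes in TPM (log scale, 0 drawn at 0.01), by family and ordered by mean level; open squares are replicate 2, filled circles replicate 1, and the dashed line is the detection threshold of 1 TPM. Hist1h2ap stands 14.34 times above the second gene, Hist1h4d, and most genes have a mean between 1 and 100 TPM.

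The 64 genes totalled 4492 TPM in replicate 2 and 4912 TPM in replicate 1, a mean of 4702 ± 297 (SD, n = 2). They took 33041 of 29166901 expected counts (estimated reads per gene) in replicate 2, or 0.113%, and 34637 of 27638068 in replicate 1, or 0.125%. Without Hist1h2ap the sum was 1085 TPM in replicate 2 and 1165 TPM in replicate 1. In tissue pools, fewer cells of a type and less RNA per cell cannot be told apart.

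The 6 linker histone genes had the lowest sum of the 5 families but not the lowest median. Their median was 7.06 TPM, below that of H2A (9.02 TPM) and above those of H3 (4.83 TPM), H4 (3.66 TPM) and H2B (2.92 TPM). The family totalled 59.3 TPM in replicate 2 and 68.3 TPM in replicate 1, which is 1.36% of the summed level of the 64 genes. That share was 2.57% by expected counts and 9.12% among genes with under 50% of 100-base windows shared with another gene, where it lay above the 5.66% of H3. Hist1h1e had 32.64 TPM in replicate 2 and 37.35 TPM in replicate 1, more than the other 5 linker genes together in either library. Hist1h1b had 12.20 and 13.12 TPM, and Hist1h1c had 9.07 and 11.16 TPM, in replicates 2 and 1. The TPM of these 2 genes did not overlap, with Hist1h1b above Hist1h1c in each library. Their deposited TPM intervals overlap in replicate 1, at 10.8 to 14.9 against 9.53 to 12.1 TPM. Hist1h1d followed at 4.39 TPM in replicate 2 and 3.62 TPM in replicate 1. Hist1h1a had 1.03 TPM from 10 counts in replicate 2 and 3.07 TPM from 29 counts in replicate 1. Hist1h1t, which encodes the testis-specific H1t, had 0 counts in each library; 3 counts, taken as the limit that 0 counts allow, would equal 0.2653 TPM in replicate 2 and 0.2737 TPM in replicate 1.

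H2A genes carried 82.9% of the summed level, with 3714 TPM in replicate 2 and 4087 TPM in replicate 1, and 91.7% of that came from Hist1h2ap. Hist1h2ap (chr13:21833026-21833507, 1 exon) had 3407 TPM from 23427 counts in replicate 2 and 3746 TPM from 24961 counts in replicate 1, higher than 99.95% of protein-coding genes by mean level. Hist1h2ae had 104.26 TPM in replicate 2 and 110.1 TPM in replicate 1. It was the only other H2A gene above 100 TPM in either library. Hist3h2a had 49.40 and 44.28 TPM, and Hist1h2ag had 42.37 and 50.04 TPM, in replicates 2 and 1. These 2 genes changed places between the libraries, so their order is not resolved.

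Of the 18 H2A genes 14 were detected, and Hist1h2aa and Hist1h2ao had 0 counts in both libraries. Hist1h2aa lies beside Hist1h2ba, an H2B gene that also had 0 counts in both libraries, and both encode histones known from the testis. Germ cell markers were at or near 0 as well, with Dazl at 0.04 TPM in both libraries, Ddx4 at 0.82 TPM in replicate 2 and 0.25 TPM in replicate 1, and Stra8 at 0 TPM in replicate 2 and 0.16 TPM in replicate 1. At 0 counts the limit was 0.5743 TPM in replicate 2 and 0.5926 TPM in replicate 1 for Hist1h2aa, and the deposited intervals of Hist1h2ba, which shares 27.4% of its windows, reach 0.865 TPM in replicate 2 and 0.897 TPM in replicate 1.

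H2B genes totalled 148.2 TPM in replicate 2 and 158.9 TPM in replicate 1, or 3.27% of the summed level, with 12 of 15 detected. Hist3h2ba was the highest, at 59.86 TPM in replicate 2 and 66.01 TPM in replicate 1. Hist1h2bc had 36.94 and 34.57 TPM, and Hist1h2bk had 14.33 and 18.28 TPM, in replicates 2 and 1. Hist1h2bj had 12.22 TPM in replicate 2 and 12.72 TPM in replicate 1. The 4 genes kept this order in both libraries with no overlap of their TPM. The deposited intervals of Hist1h2bk and Hist1h2bj do overlap, at 8.98 to 17.4 against 8.68 to 15.4 TPM in replicate 2 and 12.6 to 21.7 against 9.04 to 16.2 TPM in replicate 1. The order of these last 2 genes is thus less certain. H2A and H2B pair as dimers in the nucleosome, and the summed levels of their genes differed by far more than the spread between libraries, 3900 ± 264 TPM against 153.6 ± 7.58 TPM (SD, n = 2). Most of that gap came from Hist1h2ap, without which H2A was at 323.6 ± 24.2 TPM. The genes not analysed here, Hist2h2bb, Hist1h2bm and Hist1h2bh, are all of H2B, so the H2B sum leaves them out.

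H3 genes totalled 269.9 TPM in replicate 2 and 282.6 TPM in replicate 1, or 5.88% of the summed level, with 10 of 12 detected. Hist1h3i had 173.76 TPM in replicate 2 and 173.36 TPM in replicate 1. Hist2h3b, whose 100-base windows all occur in another gene, followed at 44.29 TPM in replicate 2 and 43.20 TPM in replicate 1. Hist1h3d had 17.57 and 14.32 TPM, and Hist1h3c had 10.50 and 12.10 TPM, in replicates 2 and 1. The 12 genes encode only 2 proteins of 136 residues, the first methionine included, which differ at 1 residue. One is encoded by Hist1h3a, Hist1h3g, Hist1h3h and Hist1h3i, which totalled 181.4 TPM in replicate 2 and 197.0 TPM in replicate 1. The other is encoded by the remaining 8 genes, which totalled 88.5 TPM in replicate 2 and 85.6 TPM in replicate 1. The 4-gene sum was the higher in both libraries.

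H4 genes totalled 300.6 TPM in replicate 2 and 314.8 TPM in replicate 1, or 6.55% of the summed level, with 8 of 13 detected, and all 13 encode 1 protein. Hist1h4d had 247.45 TPM from 1306 counts in replicate 2 and 251.34 TPM from 1286 counts in replicate 1, which was 81.1% of the family. Hist1h4i had 19.95 TPM in replicate 2 and 22.63 TPM in replicate 1. Hist1h4c had 11.85 and 8.66 TPM, and Hist1h4n had 8.23 and 12.03 TPM, in replicates 2 and 1, so the order of this last pair turned between libraries. Hist1h4m had 0 expected counts in each library, but its coding sequence is identical to that of Hist1h4n and the deposited TPM intervals reach 2.90 TPM in replicate 2 and 2.23 TPM in replicate 1.

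**Figure D2:**
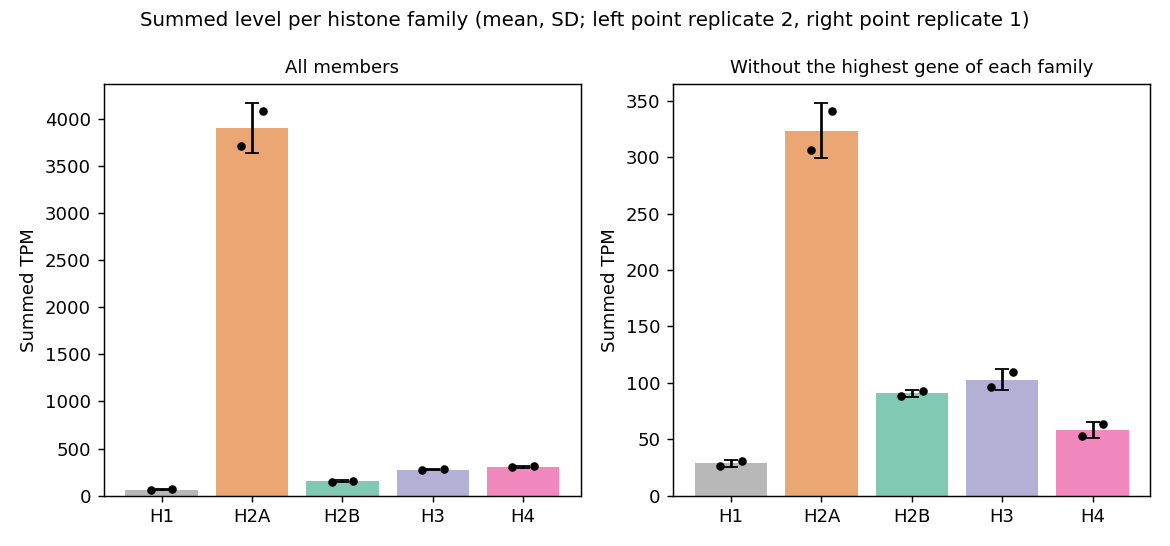
Summed TPM of each histone family with all genes (left) and without the highest gene of each family (right); bars are the mean of 2 libraries, error bars the SD, and the left and right points of a bar are replicate 2 and replicate 1. Left, H2A reaches 3900 TPM against at most 308 TPM in any other family; right, H2A is at 324 TPM, H3 at 102.7, H2B at 90.6, H4 at 58.3 and H1 at 28.8 TPM.

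In every family 1 gene held a large share of the level, between 41.0% for Hist3h2ba in H2B and 91.7% for Hist1h2ap in H2A. After the highest gene of each family was left out, H2A totalled 306.5 TPM in replicate 2 and 340.8 TPM in replicate 1. H3 totalled 96.1 and 109.3 TPM, and H2B totalled 88.4 and 92.9 TPM, in replicates 2 and 1. H2A stayed the highest family without Hist1h2ap, while H4 moved from the second to the fourth of the 5 families. Among genes with under 50% of windows shared, which leaves out Hist1h2ap and Hist1h3i, H4 held 41.7%, H2A 24.7% and H2B 18.8% of the summed level. That H2A share includes Hist1h2ae, at a mean of 107.18 TPM. Its windows were counted on an M21 model of 704 bases, against 460 bases deposited, so its place in the set is not certain.

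Most of the summed level came from the Hist1 cluster, whose 52 genes form 2 stretches of chromosome 13. The stretch at chr13:21715763-22043676 held 22 genes and 3737 TPM in replicate 2 and 4113 TPM in replicate 1. The stretch at chr13:23531050-23934851 held 30 genes and 538.7 TPM in replicate 2 and 573.1 TPM in replicate 1. Without Hist1h2ap the first stretch was at 329.1 TPM in replicate 2 and 366.9 TPM in replicate 1, below the second. The second stretch without its own highest gene, Hist1h4d, was at 291.3 TPM in replicate 2 and 321.8 TPM in replicate 1, below the first without Hist1h2ap. Detection was alike in both stretches, at 17 of 22 genes and 23 of 30 genes.

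**Figure D3:**
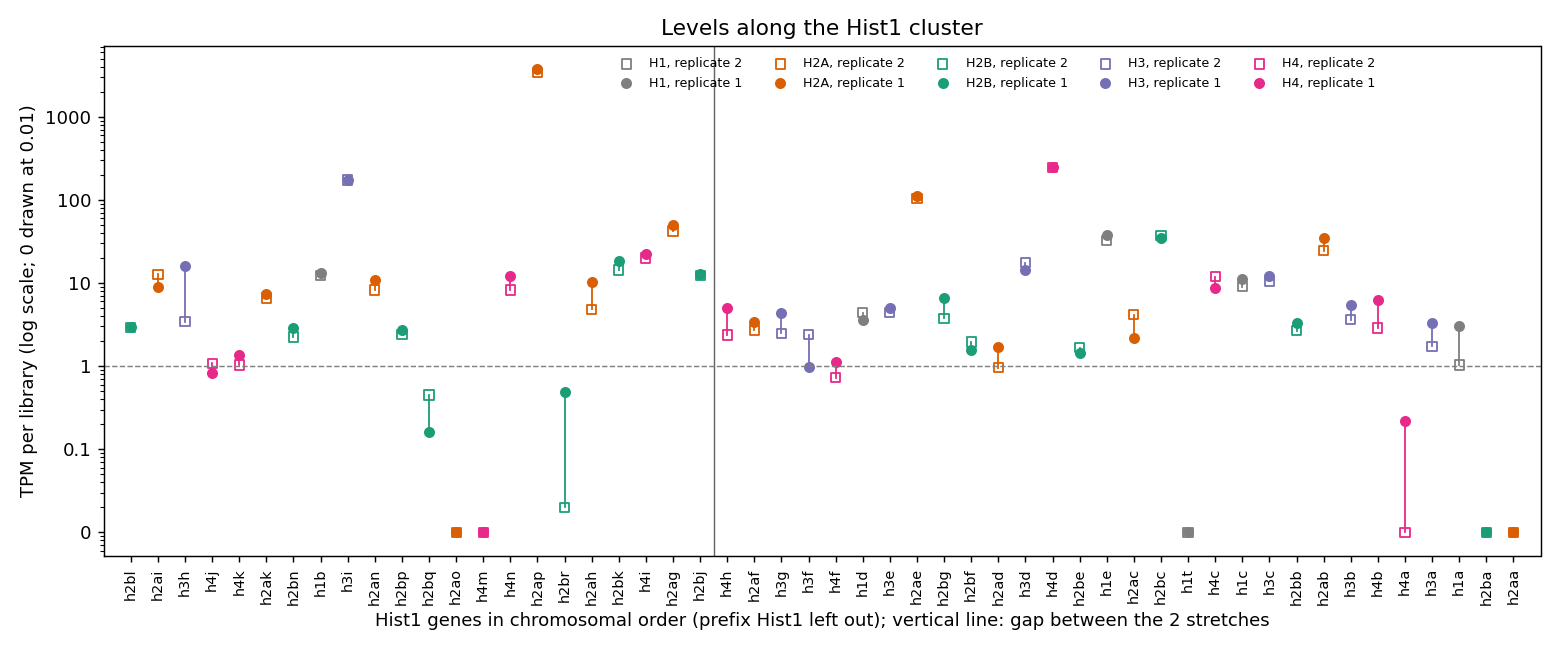
Level of the 52 Hist1 genes in TPM (log scale, 0 drawn at 0.01) in chromosomal order, coloured by family; open squares are replicate 2 and filled circles replicate 1. Genes above 100 TPM (Hist1h3i, Hist1h2ap, Hist1h2ae and Hist1h4d) have direct neighbours at or below 17.57 TPM, in both stretches.

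The smaller clusters were not uniformly low. Hist2 totalled 107.0 TPM in replicate 2 and 114.3 TPM in replicate 1 over 9 genes. It was led by Hist2h3b, whose 100-base windows all occur in another gene. Hist3 totalled 109.3 TPM in replicate 2 and 110.3 TPM in replicate 1 from Hist3h2ba and Hist3h2a alone. Hist4h4, the only gene of its cluster, had 0.48 TPM from 24 counts in replicate 2 and 0.79 TPM from 38 counts in replicate 1, below the detection threshold in both. Hist3 rested on 6.71% of the expected counts but 2.34% of the summed TPM of the 64 genes; the deposited length of Hist3h2a is 2146 bases, against 482 bases for Hist1h2ap.

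Many H2A and H2B genes stand head to head, with a shared stretch of promoter between 2 divergent transcripts. There were 12 such pairs, with 175 to 305 bases between the gene starts. The H2A gene was the higher in both libraries in 7 pairs and the H2B gene in Hist1h2ac with Hist1h2bc and in Hist1h2ah with Hist1h2bk. The order turned between libraries in Hist1h2ad with Hist1h2bf, and Hist1h2aa and Hist1h2ba were both at 0 counts. The order of Hist1h2ao and Hist1h2bq is not resolved, since Hist1h2ao was the lower by TPM, at 0 in both libraries, and the higher by the deposited posterior mean TPM, which made the count 8 pairs. In the pair with the highest summed level, Hist1h2br had 0.02 TPM in replicate 2 and 0.49 TPM in replicate 1 beside Hist1h2ap, which had 3407 and 3746 TPM. Hist1h2bg had 3.77 and 6.53 TPM beside Hist1h2ae, with 104.26 and 110.1 TPM, in replicates 2 and 1. Hist1h2bj, given above, was 3.47 times below Hist1h2ag in replicate 2 and 3.93 times below it in replicate 1. The fourth pair ran the other way, with Hist1h2ac at 4.18 TPM in replicate 2 and 2.17 TPM in replicate 1 beside Hist1h2bc at 36.94 and 34.57 TPM. The levels assigned to genes on either side of a shared promoter stretch were thus often unequal. With deposited intervals apart in both libraries, the H2A gene was higher for Hist1h2ap, Hist1h2ae and Hist1h2ag and the H2B gene only for Hist1h2bc. The intervals of Hist1h2ah and Hist1h2bk overlapped in both libraries. Hist1h2ap shares 92.2% and Hist1h2br 86.4% of 100-base windows with other genes, so their levels depend on how reads were divided between copies. Of the 7 pairs, Hist2h2ac and Hist2h2be were close in replicate 2, at 6.99 and 6.78 TPM with overlapping deposited intervals. The deposited intervals of Hist1h2ai and Hist1h2bl, of Hist1h2an and Hist1h2bp, and of Hist1h2ak and Hist1h2bn overlapped in both libraries. The order within these pairs is thus less certain.

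The promoter stretch between Hist1h2ap and Hist1h2br is shown because it serves the most abundant histone gene and because a second copy of it exists. It covers chr13:21833508-21833742 on the plus strand, 5′ to 3′, from RefSeq on GRCm38.p6, and reads away from Hist1h2ap and towards Hist1h2br. Capitals mark CCAAT boxes in either orientation.
Hist1h2ap and Hist1h2br: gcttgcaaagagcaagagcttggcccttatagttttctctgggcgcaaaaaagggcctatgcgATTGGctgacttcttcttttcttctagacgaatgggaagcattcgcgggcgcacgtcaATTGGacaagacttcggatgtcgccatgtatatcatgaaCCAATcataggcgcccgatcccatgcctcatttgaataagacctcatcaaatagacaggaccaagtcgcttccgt
The stretch held 3 CCAAT boxes and no exact match to the octamer ATTTGCAT, to TATAAA or to AAACACA, the box known from H1 promoters. The stretch between Hist1h2ao and Hist1h2bq (chr13:21810200-21810434, minus strand) was identical to it over all 235 bases. The levels assigned to the genes beside these identical stretches had means of 3577 TPM for Hist1h2ap and 0 TPM for Hist1h2ao.

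A stretch before Hist1h4d, the highest H4 gene, is shown for contrast (chr13:23581448-23581567, plus strand, RefSeq on GRCm38.p6). Capitals mark 1 CCAAT box, on the minus strand, and 1 TATAAA.
Hist1h4d: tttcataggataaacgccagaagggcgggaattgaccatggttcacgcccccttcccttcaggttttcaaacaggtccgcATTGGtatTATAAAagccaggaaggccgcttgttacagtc
Promoters of 300 bases, from 250 before to 50 after the gene start, were matched for 58 of the 64 genes and searched on both strands. The shares below leave out the unmatched Hist1h2ap, Hist1h2bc, Hist1h3a, Hist1h3f, Hist2h2be and Hist2h4. CCAAT, the box bound by the factor NF-Y, was found in 84.5% of them and in 37.3% of 32792 other promoters. It was present in all promoters searched of the H1, H2A, H2B and H3 families and in 3 of 12 H4 promoters. TATAAA was found in 60.3%, against 13.5% of other promoters. The octamer, which the factor encoded by Pou2f1 binds, was found in 7 of 17 H2A and 4 of 13 H2B promoters and in none of the other families, 19.0% in all against 1.70% of other promoters. The H1 box AAACACA was found in 5 of 6 H1 promoters and in 13.8% of all 58, against 7.17% of other promoters. The windows of many divergent H2A and H2B pairs overlap, such as those of Hist1h2ae and Hist1h2bg, so the same match can be counted for both genes. The 58 promoters are thus not all separate stretches. A match describes these letters in this window and is not evidence of binding.

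Near-identical copies limit which gene a read can be assigned to. The deposited count of a gene was estimated, and the share of its 100-base windows that occur in another gene measures how far reads of that length could be told apart. At least 50% of windows were shared in 27 of 64 genes, namely 12 H2A, 6 H3, 5 H2B and 4 H4 genes and none of H1. The windows are those of M21 transcripts, while the deposited estimates rest on older models that differ for 20 genes. For these the share on the deposited model can differ, as for Hist1h2ae, with 460 bases deposited and 704 in M21. The authors deposited a posterior SD of the count as the spread of its estimate. Its median was 31.1% of the posterior mean count in these 27 genes and 6.82% in the other 37. The latter median leaves out Hist1h1t and Hist1h2aa, whose posterior mean count was 0. The posterior SD was above 25% in both libraries in 13 of the 56 histone genes with at least 10 counts in a library, or 23.2%. Of all 17219 genes that passed this filter, 1.75% were above it.

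**Figure D4:**
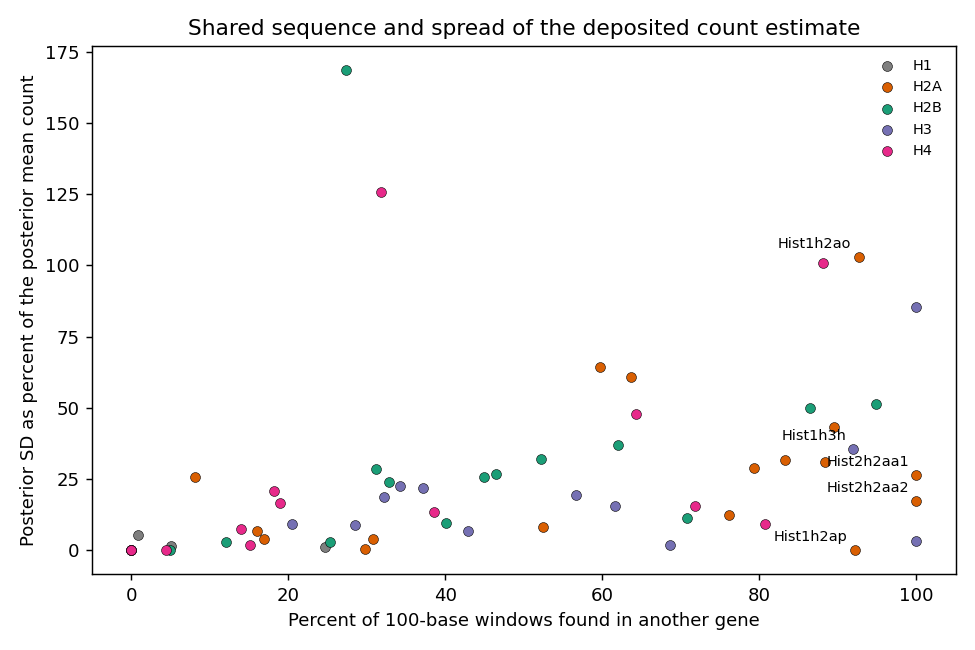
Each of the histone genes with a posterior estimate, by the percent of its 100-base windows that occur in another gene (horizontal axis) and the deposited posterior SD as a percent of the posterior mean count, averaged over both libraries (vertical axis); colours are families. Genes of the H1 family lie near 0 on the vertical axis, and the highest H2A gene, Hist1h2ap, combines 92.2% shared windows with a posterior SD under 1%.

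Hist1h2ap and Hist1h2ao are the clearest case. Their transcripts were identical over 452 aligned bases, with 0 mismatches. Hist1h2ap has 30 further bases at the 5′ end and Hist1h2ao 28 further bases at the 3′ end, past the stem-loop. Of the 383 windows of Hist1h2ap, 30 occur in no other gene and the rest also occur in Hist1h2ao. The estimate placed 23427 counts in replicate 2 and 24961 in replicate 1 on Hist1h2ap and 0 on Hist1h2ao in both, with a posterior SD of 0.215% and 0.235% of the count of Hist1h2ap. The posterior mean of Hist1h2ao was 2.27 TPM in replicate 2 and 3.56 TPM in replicate 1, and its deposited intervals reach 6.93 TPM in replicate 2 and 11.2 TPM in replicate 1. That SD refers to the deposited gene models, in which the ends of these 2 transcripts differ. How the counts would be split under other models was not tested.

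Hist2h2aa1 and Hist2h2aa2 have the same coding sequence, every window of each occurs in another gene, and their split moved between libraries. Hist2h2aa1 had 18.26 TPM from 160 counts in replicate 2 and 8.26 TPM from 70 counts in replicate 1. Hist2h2aa2 had 20.34 TPM from 157 counts in replicate 2 and 36.58 TPM from 273 counts in replicate 1. The sum of both was 38.6 TPM in replicate 2 and 44.8 TPM in replicate 1, a smaller difference than that of either gene. Hist1h4n and Hist1h4m totalled 8.23 TPM in replicate 2 and 12.03 TPM in replicate 1, all of it on Hist1h4n. In contrast, Hist1h4d shared 0% of its windows although its protein is that of the other 12 H4 genes, so its level does not rest on a choice between copies.

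The stem-loop was found in the M21 transcripts of 44 of the 64 genes, at 4 of 6 in H1, 11 of 18 in H2A, 8 of 15 in H2B, 9 of 12 in H3 and 12 of 13 in H4. Some of the other models end with the coding sequence, so these counts describe the models and not the genes. The stem-loop stood within the last 150 bases of 33.3% of the 69 protein-coding transcripts of the 64 genes, against 0.221% of 58728 other protein-coding transcripts. Of the 69, 91.3% had 1 exon, against 4.66% of the others. The deposited values rest on the older M4 models, so a transcript was classed only where its identifier, version and length were those of M21.

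Models that end within 150 bases of the stem-loop belonged to 18 genes and held 74.4% of the counts of the 64 genes in replicate 2 and 76.1% in replicate 1. Without Hist1h2ap, this share was 11.9% in replicate 2 and 14.3% in replicate 1. Models that run further past the stem-loop, among them those of Hist3h2a, Hist3h2ba, Hist1h1c and Hist1h4i, belonged to 9 genes and held 9.02% ± 0.638 of counts (SD, n = 2). Models in which no stem-loop was found, among them those of Hist1h3i and Hist2h3b, belonged to 20 genes and held 5.97% ± 0.223. Some of these, such as the 411-base model of Hist1h3i, hold the coding sequence only, so a stem-loop past it could not be found. Another 9.79% ± 0.340 of counts lay on 20 genes whose models differ between releases. Hist1h4d is one of these, with a deposited length of 393 bases and an M21 length of 1138 bases, and the stem-loop 786 bases before the M21 end. Since TPM is a level per length, the levels of genes with changed models hold for the deposited lengths only.

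Of the 3 genes with the run of A before the stem-loop, Hist1h2ap was the highest of the 64 genes and Hist1h2ae the fourth, while the level of Hist1h2ao is not separated from that of Hist1h2ap. The part of this sequence in the levels was not tested.

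Between the 2 pools the histone genes leaned towards lower values in replicate 2. The log2 ratio of replicate 2 over replicate 1 was taken from counts scaled by library size over 56 histone genes and 17219 genes in all with at least 10 counts in a library. It was below 0 in 39 of the 56 (69.6%), against 50.4% of all genes. Its median was −0.21 on the log2 scale, against −0.002 over all genes. By family, 4 of 5 H1, 12 of 16 H2A, 8 of 14 H2B, 8 of 12 H3 and 7 of 9 H4 genes were lower in replicate 2. With 1 pool on each side there is no test of this difference, and genes that share sequence are not independent of each other.

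More than 1.5-fold lower in replicate 2 were 14 of 56 histone genes (25%), against 5.95% of all genes, and more than 1.5-fold higher were 5 (8.93%), against 4.87%. Most of these genes had few counts. Among genes with a mean of at least 100 counts, 2 of 20 histone genes (10.0%) passed 1.5-fold in either direction, against 1.12% of 12351 genes, and both were the copies Hist2h2aa1, at 1.08, and Hist2h2aa2, at −0.88. The median log2 ratio of these 20 was −0.13, against 0.001 over the 12351. After that pair, the largest ratios at this depth were 0.31 for Hist2h2be and 0.24 for Hist1h3d upwards, and −0.56 for Hist1h2ab and −0.39 for Hist1h2bk downwards.

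**Figure D5:**
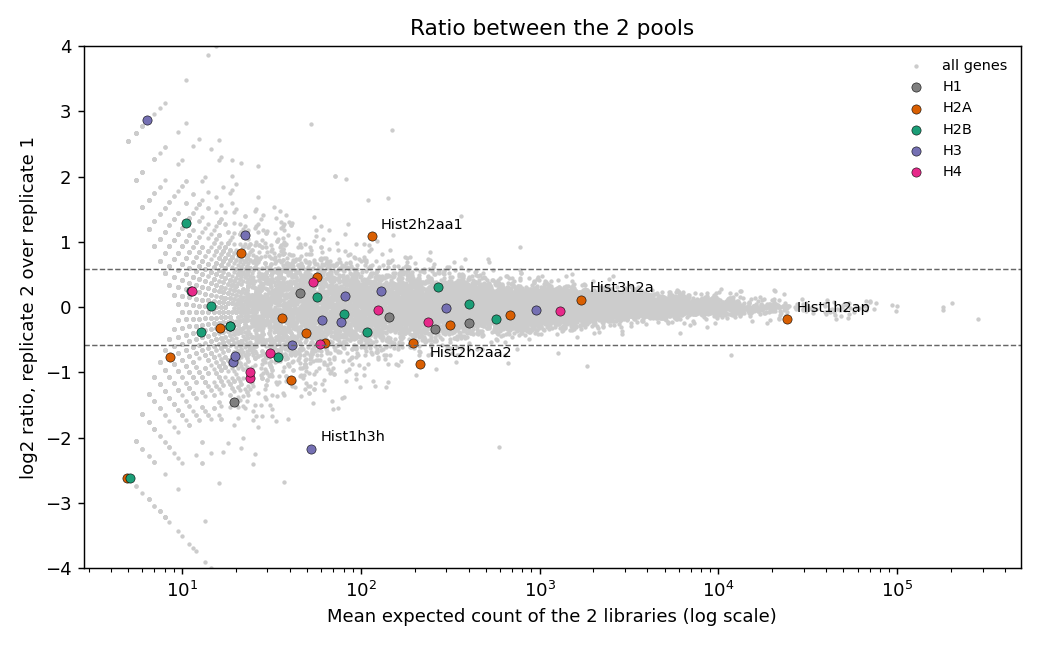
The log2 ratio of replicate 2 over replicate 1 (vertical axis) against the mean expected count (horizontal axis, log scale); grey points are all genes with at least 10 counts in a library, coloured points the 56 histone genes, and dashed lines mark 1.5-fold. Histone genes with over 100 counts lie between −0.56 and 0.31, apart from the copies Hist2h2aa1 and Hist2h2aa2.

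The deposited TPM intervals of the 2 libraries did not overlap for 5 of the 56 histone genes (8.93%), against 12.1% of all genes. The confidence level of these intervals is not stated in the files, and they cover the assignment and counting of reads, not the variation between pools. The 5 genes were Hist1h2ap, Hist3h2a, Hist2h2be, Hist1h3h and Hist1h1a. In counts scaled by library size, Hist1h2ap in replicate 2 was at 0.883 times its value in replicate 1, a log2 ratio of −0.18 with a 95% exact binomial counting interval from −0.21 to −0.15. On the same scale, Hist3h2a in replicate 2 was at 1.08 times its value in replicate 1, a log2 ratio of 0.11 (0.02 to 0.21). Hist1h3h had 3.41 TPM from 19 counts in replicate 2 and 15.96 TPM from 87 counts in replicate 1, with 92.0% of its windows shared. No source used here describes molecular identifiers, so the binomial intervals and the limits at 0 counts cover counting error only.

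Markers of other cells moved between the pools as well. All 4 neuronal markers, Tubb3, Elavl3, Dcx and Stmn2, were higher in replicate 2, and their sum was 1352 TPM in replicate 2 and 1162 TPM in replicate 1. Both muscle markers, Actc1 and Mylpf, were lower in replicate 2, with sums of 208.3 TPM in replicate 2 and 258.8 TPM in replicate 1. The embryonic globin genes Hbb-y and Hba-x, markers of red blood cells, had sums of 8673 TPM in replicate 2 and 8611 TPM in replicate 1, and the order turned without the spike-ins, at 9834 TPM in replicate 2 and 9917 TPM in replicate 1. Among the 5 progenitor markers of the neural tube, Sox2, Nes, Vim and Fabp7 were higher and Pax6 lower in replicate 2, with sums of 1822 TPM in replicate 2 and 1777 TPM in replicate 1. None of these markers was at 0 in either library. The part of cell composition in the lower histone levels of replicate 2 was not tested.

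The listed genes that make, process and deposit histones were detected without exception, against 59.9% of all protein-coding genes. All 19 genes of histone gene transcription and 3′ end processing were detected, and their median level was 32.3 TPM. Slbp, which encodes the stem-loop binding protein, had 195.6 TPM in replicate 2 and 211.6 TPM in replicate 1. Ncbp1, a cap-binding protein, had 115.1 and 104.0 TPM, and Nfyc, a subunit of NF-Y, had 99.8 and 92.7 TPM, in replicates 2 and 1. Npat, the cyclin E and CDK2 target that activates histone gene transcription, had 18.1 TPM in replicate 2 and 17.7 TPM in replicate 1. Npat lay lower than Slbp in both libraries by more than their spread.

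All 5 genes listed for histone mRNA decay were detected, led by Zcchc11 at 53.6 ± 1.17 TPM, a terminal uridylyl transferase, and Lsm1 at 34.8 ± 1.07 TPM, a subunit of the ring that binds oligouridylated ends. Tut1, at 24.6 ± 3.96 TPM, and Zcchc6, at 24.0 ± 0.0354 TPM, changed places between the libraries (SD, n = 2 each). All 12 histone chaperone and assembly genes were detected. Their median was 121 TPM, and the highest were Rbbp4, a subunit of a chromatin assembly factor, at 387 ± 9.91 TPM, Rbbp7, a partner of the acetyltransferase encoded by Hat1, at 253 ± 3.77 TPM, and Nap1l1, a chaperone of H2A and H2B, at 233 ± 0.233 TPM. Cdk2, Ccne1 and Ccne2, whose kinase acts at entry into S phase, were at 72.0 ± 4.02, 66.0 ± 0.679 and 46.1 ± 1.52 TPM.

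Replacement histone genes were set beside the replication-dependent genes of the same family. The 12 replication-dependent H3 genes totalled 269.9 TPM in replicate 2 and 282.6 TPM in replicate 1, against 4220 and 4300 TPM for H3f3a, H3f3b and Cenpa. The log2 ratio of these sums was −3.95 ± 0.03 (SD, n = 2). H3f3a alone had 2565 TPM in replicate 2 and 2638 TPM in replicate 1, and H3f3b had 1425 TPM in replicate 2 and 1423 TPM in replicate 1. For H1, the 6 replication-dependent genes totalled 59.3 and 68.3 TPM, against 314.3 and 273.9 TPM for H1f0 and H1fx, in replicates 2 and 1. In H3 and H1 the replication-dependent sum was the lower in both libraries.

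In H2A the sums were closer, at 3714 TPM in replicate 2 and 4087 TPM in replicate 1 for the 18 replication-dependent genes and at 3525 and 3631 TPM for 5 replacement genes led by H2afz. The log2 ratio was 0.12 ± 0.07 (SD, n = 2). H2afz had 1954 TPM in replicate 2 and 2036 TPM in replicate 1. Without Hist1h2ap, the replication-dependent H2A sum was 306.5 TPM in replicate 2 and 340.8 TPM in replicate 1, below the replacement sum in both. No replacement gene of H2B or H4 was in the list. These are levels of RNA in libraries whose capture of transcripts without a poly(A) tail is not settled, and they do not measure protein.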

How the data were processed

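The members and gene lists were chosen with earlier results of these data known. Expected counts and TPM per gene and transcript were deposited by the authors on mm10 with GENCODE M4, per the deposited file descriptions; aligner and quantifier: not given in the sources used here. The authors also deposited a posterior SD of each count (a score), the bounds of a TPM interval (a signal) and the percent of each gene's level on a transcript. The deposited TPM include spike-ins, which took 11.8% in replicate 2 and 13.17% in replicate 1. No source used here says whether strand was kept, so overlapping genes on opposite strands cannot be told apart. The expected counts summed to 29166901 in replicate 2 and to 27638068 in replicate 1.

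Symbols came from GENCODE M21 by identifier without version (42462 of 43346 matched), promoters from RefSeq GRCm38.p6. Expected counts were rounded. TMM factors (0.99993 in replicate 2, 1.00007 in replicate 1) and log2 ratios, with 2 as the prior count, were computed with edgeR 4.0.16 (R 4.3.3) over genes with 10 counts in a library; DESeq2 1.42.0 gave alternative size factors. With 1 group of 2 pools no test between groups was made. The ratio step was tested on simulated data. Python 3.11.15, pandas 2.3.3, numpy 2.4.6, Biopython 1.88 and matplotlib 3.10.9 did the rest.

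Genes were named by rule: the 4 highest per family, every member at 0 counts in both libraries, the 3 largest ratios each way at a mean of 100 counts, the 4 highest divergent pairs, Hist3 and Hist4, and the 3 highest of each pathway list. A rule to name the 5 members with the lowest share of counts on stem-loop models gave a tie at 0 and was not used. Copies of named genes, the 5 genes with separate intervals, Npat, Zcchc6 and the example models were named after their values were seen. Zcchc6 and Zcchc11 were matched through RefSeq synonyms.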

Additional observations from a re-analysis of the deposited data

Results flagged for a closer look

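Rows annotated as histone pseudogenes are outside the comparisons above, and 2 of them held more than 3 counts in both libraries. Hist1h2aj, an unprocessed pseudogene of the Hist1 cluster, had 3.42 TPM from 15.5 counts in replicate 2 and 5.80 TPM from 25.6 counts in replicate 1, a mean of 4.61 TPM. Hist3h2bb-ps, a processed pseudogene on chromosome 11, had 0.85 TPM from 5.60 counts in replicate 2 and 0.87 TPM from 5.57 counts in replicate 1, a mean of 0.86 TPM. How many of these reads belong to near-identical histone genes was not tested.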

How the results depend on the processing

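The detected count was 49 in the main setting, 49 with 10 expected counts and 52 with posterior means. It was 55 at 0.1 TPM, 51 with replicate 2 alone and 52 with replicate 1 alone. A lower threshold or 1 library alone can only raise this count, and the 64 genes cap it. Those settings therefore do not bear on stability. Shares of families and clusters depended on the genes included and on length. By expected counts in place of TPM, H1 held 2.57%, H2A 81.9%, H2B 4.78%, H3 5.23% and H4 5.52%, and Hist1 held 89.7%, Hist2 3.49%, Hist3 6.71% and Hist4 0.0912%. Among genes with under 50% of windows shared, H1 held 9.12%, H2A 24.7%, H2B 18.8%, H3 5.66% and H4 41.7%, and Hist1 held 81.5%, Hist2 2.74%, Hist3 15.7% and Hist4 0.0905%. Hist1h2ap and Hist1h3i are not in that set, which was formed on M21 transcripts and could differ on the deposited models. Without the highest gene of each family, H1 held 4.77%, H2A 53.6%, H2B 15.0%, H3 17.0% and H4 9.63%. Posterior means moved these shares by less than the SD of the replicates. H2A held 82.7% in replicate 2 alone and 83.2% in replicate 1 alone. The count past 1.5-fold in either direction was 19 of 56 histone genes, against 1862 of 17219 genes in all (10.8%). It was 18 of 56 with other size factors, 19 of 56 with the other prior and 18 of 55 with posterior means. The share of all genes was between 10.7% and 11.7% in these 3 settings. With no filter it was 20 of 59 histone genes, against 5189 of 23539 genes. The share of all genes was higher there than in the main setting, so the similar count does not show stability. Past 2-fold were 10 of 56 histone genes, against 740 of 17219 genes (4.3%). The share of counts on models ending near the stem-loop was 75.2%, 74.9% within 60 bases, 75.2% with posterior means, and 13.1% without Hist1h2ap, a setting chosen after seeing the data. For the 20 highest genes by family, rescaling without spike-ins multiplied TPM by 1.14, posterior means by 0.922 to 0.993 and counts over full length by 0.833 to 1.06. No paired analysis was possible because the series has 1 group. With 2 pools, an SD is a coarse measure of spread. Rescaling without spike-ins cannot change a share within a library, and leaving out 1 of 2 libraries always moves the mean by less than the SD, so neither bears on stability. Of the divergent pairs, 7 had the higher H2A gene by TPM and 8 by posterior means, a setting chosen after seeing the data.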
